A study of Mus musculus with 12 samples.

Results

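Potassium channels are membrane proteins that let K+ leave or enter a cell down its gradient, and together they set the resting potential of a neuron, end each action potential and control how fast the cell can fire again. The genes of this family all carry symbols that start with *Kcn*, and they encode pore-forming subunits that open with voltage, with Ca2+ or Na+, or at rest, as well as auxiliary subunits that change how the pores gate or reach the membrane. In the embryonic ventral spinal cord, newly born MNs acquire their K+ currents step by step while their axons grow to the limb. All genes with a *Kcn* symbol were taken, apart from *Kcnab1* and from 4 antisense transcripts that carry such a symbol, which left 93 of the 45777 genes listed for each library. Of these, 40 encode pore-forming voltage-gated subunits, 16 auxiliary proteins, 15 inward rectifiers, 14 two-pore domain channels, and 8 channels classed here as gated by Ca2+ or Na+, *Kcnu1* among them. The rule reads the symbol and no measured value, although *Kcnab1*, the gene it leaves out by name, is among those the study reports on. Of the 93 members, 92 had the same coordinates in the GRCm38.p6 annotation as in the files.

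The values come from bulk RNA-seq of mouse ventral spinal cord at E12.5, cut around the *Hb9::GFP* reporter, a transgene that labels MNs. Heterozygotes (*Isl2* +/-) served as the controls and were compared with *Isl2* KO embryos (-/-), with 3 brachial and 3 lumbar libraries of each genotype, 12 in all. No library came from embryos with both *Isl2* copies intact, and the tissue was trimmed but not sorted, so every library also holds interneurons, progenitors, vessels and blood. The design text gives 3 animals per genotype, so the brachial and lumbar libraries of a genotype may come from the same embryos, and neither it nor the labels say whether libraries of a group came from separate litters. Fewer cells of a type and less RNA per cell cannot be told apart in such samples.

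*Isl2* itself, read first as a check of the labels, was at 8.89 ± 0.675 rescaled TPM (TPM is a read abundance per transcript length, here rescaled to a common level across libraries; SD, n = 3) in brachial heterozygotes and at 5.95 ± 1.41 in brachial KO. At the lumbar level it was at 9.34 ± 0.934 and 7.35 ± 0.889. The genotypes did not overlap at either level, with log2 fold changes of −0.60 (unadjusted p = 0.0114, adjusted p = 0.358) and −0.34 (unadjusted p = 0.0313, adjusted p = 0.997). The KO allele has exons replaced by a neomycin cassette. The values are per gene, so which exons the KO reads came from was not tested. The aligned bases behind a library ranged from 4.48 to 6.64 Gb, and each library correlated with the others of its group at a mean r of 0.969 to 0.981 across genes. Among the 57 members tested in every comparison, lumbar KO replicate 2 was the lowest library of its level in 30, against 19.7% of all genes, while brachial KO replicate 3 was the lowest of its level in 18 and the highest in 20, against 26.2% and 28.4% of all genes. Markers of MNs were present in all libraries, whereas the summed level of 8 skeletal muscle genes was only 1.68 to 3.03 TPM. Of the neural markers, 9 MN genes summed to between 464 and 533 TPM in brachial and between 205 and 343 TPM in lumbar libraries, and *Prph*, an intermediate filament gene of peripherally projecting neurons, was at 226 to 318 and at 30.8 to 76.4 TPM in them.

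TPM is scaled per length of transcript, and the order of genes given here is by TPM alone. By mean rescaled TPM over the 12 libraries, 8 members were at 10 or above, 44 between 1 and 10, 9 between 0.5 and 1, and 28 above 0 but under 0.5, while *Kcna10*, *Kcnj1*, *Kcnk16* and *Kcnk18* were listed at 0 in every library. The 10 highest members held 65.2% of the summed TPM of all 93. The most abundant was *Kcnmb4*, the neuronal beta subunit of the large-conductance Ca2+-activated channel, which ranged from 35.8 to 51.2 TPM with a mean of 44.6. *Kcnip1*, a Ca2+-binding auxiliary subunit of Kv4 channels, followed at 39.9 TPM (26.0 to 53.1). *Kcnn1*, a small-conductance Ca2+-activated channel, led the pore-forming genes at 35.1 TPM (28.2 to 44.0). The ranges of *Kcnmb4* and *Kcnip1* overlap. This order holds for TPM and not for the deposited per-base coverage, which was 7.51 to 13.8 for *Kcnmb4* and 1.23 to 2.56 for *Kcnip1* but 48.4 to 93.6 for *Kcnn1*, and why the measures differ between genes was not tested.

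**Figure D1:**
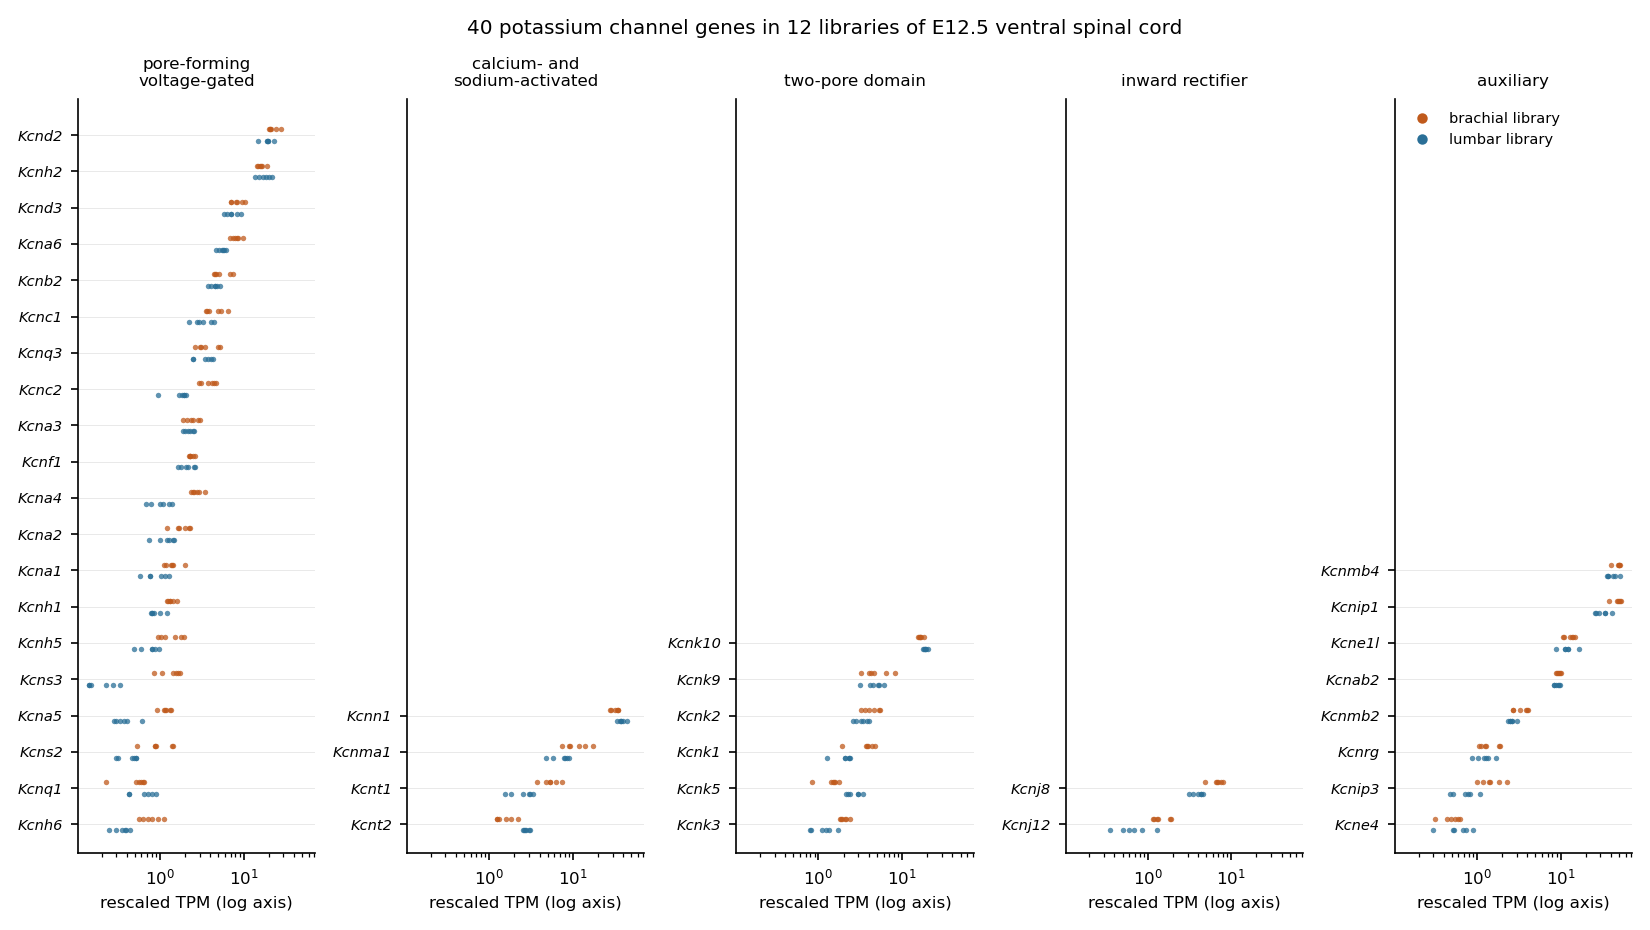
Rescaled TPM on a log axis for the members tested between levels that the text names, by channel class, with 1 point per library and the 6 brachial libraries drawn above the 6 lumbar ones. Most members lie between 1 and 10 TPM, and *Kcns3* shows the widest gap between the levels.

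Every class was present, but its sum rested on few genes. Voltage-gated pores held 37.7% of the summed TPM, auxiliary subunits 33.0%, Ca2+- and Na+-gated channels 15.2%, two-pore channels 9.14% and inward rectifiers 4.97%. Within the voltage-gated class, *Kcnd2*, a pore of the A-type current, was the highest Kv4 gene at 20.9 TPM, and *Kcnh2*, an ERG channel best known from cardiac repolarization, led its family at 17.0 TPM. *Kcna6* led the Kv1 family at 6.81, *Kcnb2* the Kv2 family at 5.01, *Kcnc1* the fast-firing Kv3 family at 3.97, and *Kcnf1* the electrically silent modifiers at 2.25 TPM. *Kcnk10*, a mechanosensitive and lipid-sensitive leak channel (TREK-2), was the highest two-pore gene by TPM at 17.7 (15.6 to 20.5), with *Kcnk9* next at 4.93, while their coverage overlapped, at 6.30 to 10.3 and 5.24 to 14.01. *Kcnj8*, the pore of a vascular ATP-sensitive channel, led the inward rectifiers at 5.36 TPM, *Kcnab2* the Kv beta subunits at 9.26, and *Kcne1l* the MinK family at 8.74 to 16.6. *Kcnrg*, the sole member listed as a regulator, was at 1.32 TPM. The summed level of all members was 388 ± 13.95 in brachial heterozygotes, 409 ± 28.9 in brachial KO, 347 ± 15.0 in lumbar heterozygotes, and 327 ± 16.6 TPM in lumbar KO (SD, n = 3).

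Next, the lumbar cord was compared with the brachial cord over both genotypes in all 12 libraries, which asks whether channel genes differ between the segments that innervate the hindlimb and the forelimb. More members were lower at the lumbar level than higher. Of the 61 members above the filter of a mean 0.5 TPM, 18 were lower at an adjusted p under 0.05, in a table where 9.89% of all 16736 genes were, and 3 were higher, against 8.51% of all genes. The median log2 fold change of the members was −0.38, while that of all genes was 0.0055, and 49 of 61 members had an estimate below 0, against 49.1% of all genes. Within heterozygotes alone the median was −0.19 with 42 members below 0, and within KO alone −0.51 with 52 below 0. All 6 brachial libraries lay above all 6 lumbar ones in 12 members, which held for 4.85% of all genes, and below them in 2, which held for 3.47%. By class, 10 of 29 voltage-gated pores, 2 of 11 auxiliary genes, 2 of 8 inward rectifiers, 3 of 6 two-pore channels, and 1 of 7 Ca2+- or Na+-gated channels were lower, whereas 2 two-pore channels and 1 Na+-gated channel were higher. Leaving out each library in turn gave 13 to 23 lower members and 2 to 5 higher ones, with 5 higher when lumbar KO replicate 3 was left out. The 13 came without brachial heterozygote replicate 2, where 1058 of all genes were lower. The 23 came without brachial KO replicate 1, where 1727 of all genes were lower.

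**Figure D2:**
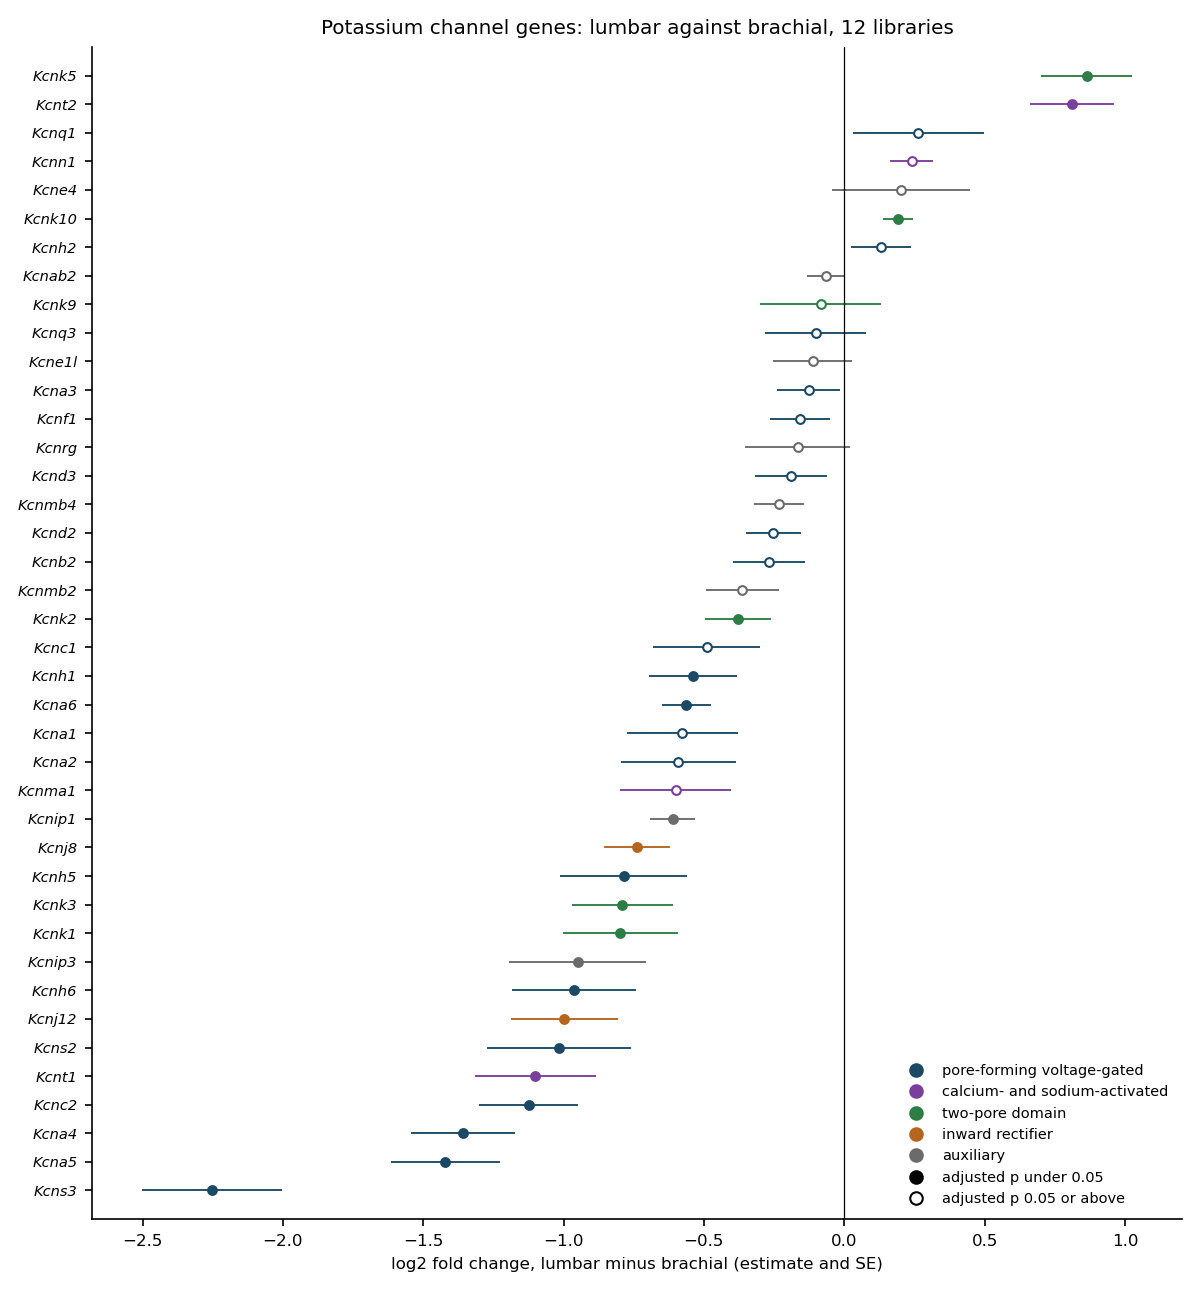
Log2 fold change of each tested member that the text names, lumbar minus brachial, with its SE, ordered by size and coloured by class, where filled points have an adjusted p under 0.05 in limma. The 17 filled points left of 0 run from *Kcns3* at −2.25 to *Kcnk2* at −0.38, and the 3 on the right are *Kcnk10*, *Kcnt2* and *Kcnk5*.

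The largest difference was that of *Kcns3* (Kv9.3; chr12:11090202-11151168 in mm10, minus strand), a subunit that forms no channel alone and changes the gating of Kv2 pores. It ranged from 0.857 to 1.74 TPM at the brachial level, with a median of 1.49, and from 0.140 to 0.330 TPM at the lumbar level, with a median of 0.186. Its log2 fold change was −2.25 ± 0.25 (SE, adjusted p = 0.00024 by limma). The highest lumbar library thus lay well under the lowest brachial one, although the lumbar values are near the pseudocount of 0.1 that was added and its per-base read coverage was at most 0.504. *Kcns2*, a modifier of the same group, had brachial values of 0.532 to 1.45 (median 0.894) and lumbar values of 0.298 to 0.515 TPM (median 0.478), with a log2 fold change of −1.02 ± 0.26 (adjusted p = 0.0185). *Kcnb2*, a pore they can join, was not called, with a log2 fold change of −0.27 (adjusted p = 0.17).

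The Kv1 family, whose channels open near threshold and limit repetitive firing, had 3 of its 6 tested genes lower at the lumbar level. *Kcna4*, which gives a fast-inactivating current, ranged from 2.347 to 3.487 TPM (median 2.645) at the brachial and from 0.686 to 1.41 TPM (median 1.03) at the lumbar level, a log2 fold change of −1.36 ± 0.19 (adjusted p = 0.00102). *Kcna5*, a delayed rectifier, ranged from 0.910 to 1.35 TPM (median 1.17) and from 0.283 to 0.609 TPM (median 0.352), a change of −1.42 ± 0.19 on the log2 scale (adjusted p = 0.00102). *Kcna6*, also a delayed rectifier, ranged from 6.83 to 9.82 TPM (median 8.10) and from 4.62 to 6.15 TPM (median 5.61), with a log2 fold change of −0.56 ± 0.09 (adjusted p = 0.00208). In none of these did the levels overlap. *Kcna1* and *Kcna2* had log2 fold changes of −0.58 and −0.59 that did not pass (adjusted p = 0.0616 and 0.0649), and *Kcna3* was at −0.13 (adjusted p = 0.481). *Kcna5*, *Kcna1* and *Kcna6* lie side by side on chromosome 6, between positions 126532551 and 126740834, and *Kcna3* and *Kcna2* neighbour each other on chromosome 3.

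Among the other voltage-gated genes, *Kcnc2*, a Kv3 pore that permits rapid firing, ranged from 2.91 to 4.71 TPM (median 3.96) at the brachial and from 0.946 to 2.07 TPM (median 1.88) at the lumbar level, with a log2 fold change of −1.12 ± 0.18 (adjusted p = 0.00198). Its per-base coverage was only 0.116 to 0.630. *Kcnc1*, of the same family, was at −0.49 and did not pass (adjusted p = 0.0949). Of the ether-a-go-go genes 3 of 7 were lower, namely *Kcnh6* (−0.96 ± 0.22, adjusted p = 0.0116), *Kcnh5* (−0.79 ± 0.23, adjusted p = 0.0322), and *Kcnh1* (−0.54 ± 0.16, adjusted p = 0.033). *Kcnh6* and *Kcnh1* did not overlap between the levels, with lumbar maxima of 0.437 and 1.21 TPM under brachial minima of 0.554 and 1.22 TPM, whereas *Kcnh5* overlapped, with a lumbar maximum of 0.969 and a brachial minimum of 0.947 TPM. The most abundant gene of that group, *Kcnh2*, was not called (0.13 ± 0.11, adjusted p = 0.435).

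The Kv4 pores themselves were not called, with *Kcnd2* at −0.25 (adjusted p = 0.0955) and *Kcnd3* at −0.19 (adjusted p = 0.343), but 2 of the 4 KChIP genes that bind them were lower. *Kcnip1* ranged from 38.2 to 53.1 TPM (median 49.3) at the brachial and from 26.0 to 41.0 TPM (median 31.3) at the lumbar level, and its log2 fold change was −0.61 ± 0.08 (adjusted p = 0.000802). The levels overlapped only through brachial KO replicate 3, at 38.2, and lumbar heterozygote replicate 1, at 41.0 TPM. *Kcnmb1* lies within the *Kcnip1* locus on chromosome 11 and was at a mean of 0.0647 TPM. *Kcnip3*, a Ca2+ sensor also known as a transcriptional repressor (DREAM), ranged from 1.01 to 2.26 TPM (median 1.41) and from 0.479 to 1.10 TPM (median 0.748), a log2 fold change of −0.95 ± 0.24 (adjusted p = 0.0196).

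The Na+-gated channels differed between levels in opposite directions. *Kcnt1* (Slack) ranged from 3.77 to 7.50 TPM (median 5.32) at the brachial and from 1.54 to 3.35 TPM (median 2.74) at the lumbar level, with a log2 fold change of −1.10 ± 0.22 (adjusted p = 0.00539). Its paralog *Kcnt2* (Slick) was higher at the lumbar level, where it ranged from 2.56 to 3.09 TPM (median 2.72) against 1.23 to 2.23 TPM (median 1.45), a log2 fold change of 0.81 ± 0.15 (adjusted p = 0.00406). Neither overlapped between the levels. The 2 genes were not tested against each other. The Ca2+-activated *Kcnn1* and *Kcnma1* missed the threshold, at 0.24 (adjusted p = 0.0519) and −0.60 (adjusted p = 0.0548).

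Two-pore channels carry the leak current that sets the resting potential, and 5 of the 6 tested differed between levels. *Kcnk5* (TASK-2; chr14:20140057-20181782, minus strand), which opens in alkaline medium, ranged from 0.833 to 1.76 TPM (median 1.51) at the brachial and from 2.11 to 3.37 TPM (median 2.65) at the lumbar level, so that the levels did not overlap, and its log2 fold change was 0.86 ± 0.16 (adjusted p = 0.00452). *Kcnk10* was also higher, though by little, with 15.6 to 18.2 TPM (median 16.3) against 17.9 to 20.5 TPM (median 18.7), a log2 fold change of 0.19 ± 0.05 (adjusted p = 0.0281). Its levels overlapped through brachial KO replicate 3 and lumbar heterozygote replicate 2. Lower at the lumbar level were *Kcnk3* (TASK-1, which closes in acid medium; −0.79 ± 0.18, adjusted p = 0.0111), *Kcnk1* (TWIK-1; −0.80 ± 0.20, adjusted p = 0.0193), and *Kcnk2* (TREK-1; −0.38 ± 0.12, adjusted p = 0.0439). *Kcnk3* did not overlap, with a lumbar maximum of 1.71 and a brachial minimum of 1.83 TPM. For *Kcnk2* the difference was −0.04 ± 0.17 among heterozygotes alone (adjusted p = 0.928) and −0.72 ± 0.17 among KO alone (adjusted p = 0.0659).

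**Figure D3:**
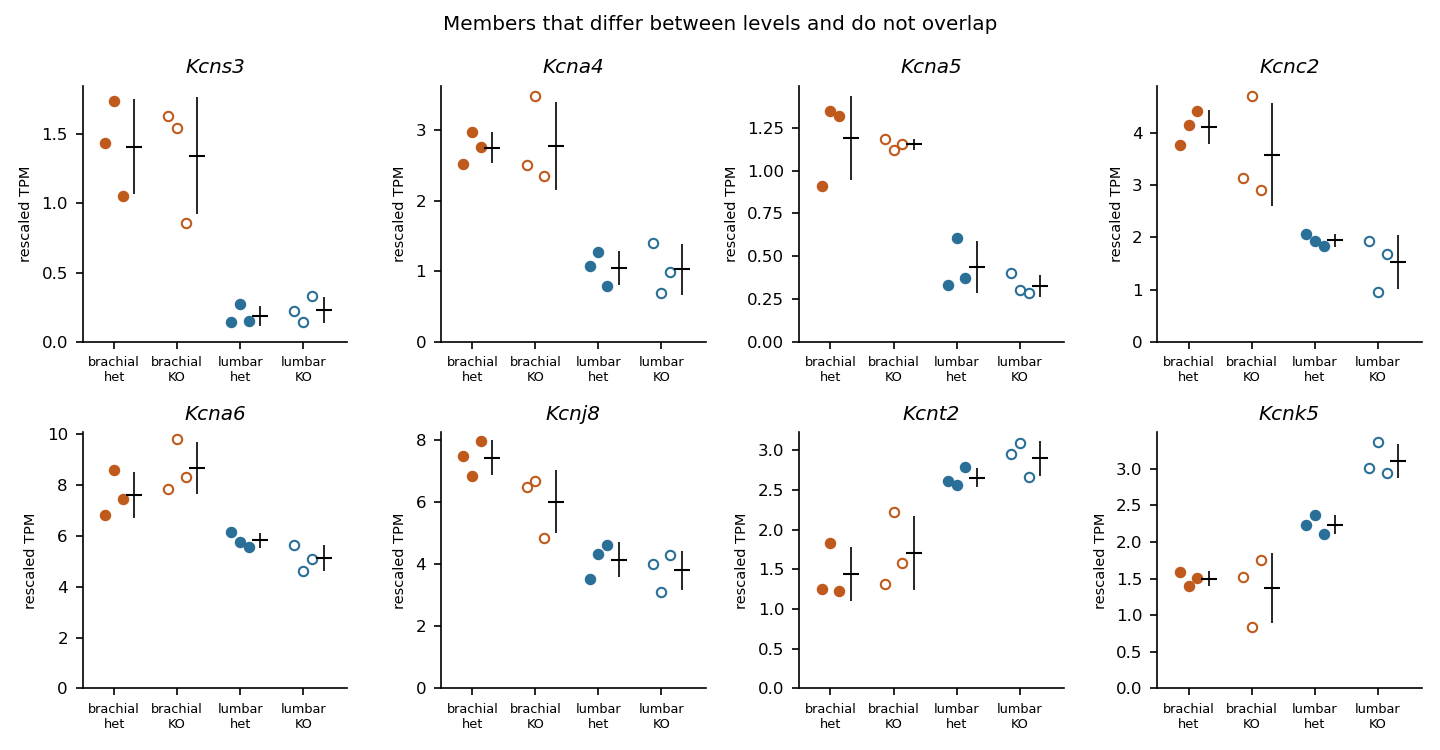
Rescaled TPM of 8 members in each library, with filled points for heterozygote and open points for KO libraries and a bar for the mean and SD of each group of 3. In all 8 the brachial points do not overlap the lumbar ones, and *Kcnt2* and *Kcnk5* are the pair that is higher at the lumbar level.

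Of the inward rectifiers, *Kcnj8* (Kir6.1) ranged from 4.85 to 7.99 TPM (median 6.79) at the brachial and from 3.11 to 4.63 TPM (median 4.16) at the lumbar level without overlap, with a log2 fold change of −0.74 ± 0.12 (adjusted p = 0.00225). *Abcc9*, the regulatory subunit that pairs with it in vessels, was also lower, at −0.75 ± 0.12 (adjusted p = 0.00247). Both genes are known from pericytes, and 3 of the 4 pericyte and smooth muscle markers tested of a list of 6 were lower too, among them *Pdgfrb* at −0.84 and *Rgs5* at −0.81, while the summed level of the 6 ranged from 34.6 to 49.9 TPM in brachial and from 24.4 to 33.8 TPM in lumbar libraries. *Acta2*, a smooth muscle marker of that list, was at 0 in 4 of 12 libraries. The part of these cells in the result was not tested. *Kcnj12* (Kir2.2), a strong rectifier, ranged from 1.17 to 1.89 TPM (median 1.31) at the brachial and from 0.358 to 1.28 TPM (median 0.644) at the lumbar level, with a log2 fold change of −0.997 ± 0.190 (adjusted p = 0.00487).

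All 21 called members had the same sign in heterozygotes alone and in KO alone, 13 of them at an unadjusted p under 0.05 in both. With 6 libraries per genotype, however, an adjusted p under 0.05 was reached by 6 members in heterozygotes and by 2 in KO, *Kcns3* and *Kcnip1*, which passed in both. Of all genes, 329 were lower and 162 higher in heterozygotes, and 164 and 136 in KO, in place of 1656 and 1425 in the fit of 12 libraries. With the embryo (genotype and replicate number) as a block, 12 members were lower and 2 higher, against 1281 and 1011 of all genes. The calls lost included those of *Kcnk1*, *Kcnip3*, *Kcnh5*, *Kcnh1*, *Kcnk2* and *Kcnk10*, although the labels do not say that a number marks an embryo. Of the 21 calls, 15 held with each single library left out. The call of *Kcnk1* and of *Kcns2* was lost without brachial heterozygote replicate 2, and those of *Kcnk10*, *Kcnh5*, *Kcnh1* and *Kcnk2* were lost without any of 5, 7, 8 and 9 of the 12 libraries.

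Other proteins that work with these channels were read from lists. Of 18 potassium channel partners, 15 were tested and 5 were lower at the lumbar level, including the Kv4 partners *Dpp6* (−0.53, adjusted p = 0.00728) and *Dpp10* (−0.91, adjusted p = 0.012), and none was higher, with a median of −0.26. Of 13 sodium-potassium pump and chloride cotransporter genes, which keep up the K+ and Cl- gradients, 12 were tested and 6 were lower, including *Atp1b1* (−0.77, adjusted p = 0.00164) and *Slc12a5*, the K+-Cl- exporter of maturing neurons (−0.54, adjusted p = 0.00903), with a median of −0.24. Cell type markers were read beside them. Of 10 pan-neuronal genes 3 were lower, with a median of −0.14 and a summed level of 5271 to 6085 TPM in brachial and 4643 to 5903 TPM in lumbar libraries. Of 9 MN markers 2 were lower, *Prph* (−2.62) and *Slc5a7* (−1.10), with a median of 0.09 for the list. Of 10 neural progenitor markers 6 were higher and 2 lower, with a median of 0.35 and a summed level of 2483 to 3336 TPM in brachial and 2538 to 3033 TPM in lumbar libraries. Endothelial (3 of 7), microglial (4 of 6), and mesenchymal markers (4 of 5) were also partly lower, and the part of any of these cells in the channel differences was not tested.

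Promoter sequences were read for the members that differed. A window of 250 bases before to 50 after a RefSeq start (GRCm38.p6) was held for 68 of 93 members and 17 of the 21 that differed between levels. The windows below belong to the gene with the largest difference in each direction, and capitals mark the only match to the Meis letters TGACAG or the Hox-Pbx letters TGATTNAT, searched on both strands. They cover chr12:11150793-11151092 (minus strand) for *Kcns3* and chr14:20181733-20182032 (minus strand) for *Kcnk5*. A single start per gene was used, and the window can lie inside the gene as the files give it, as for *Kcns3*, with 2 starts listed, and for *Kcnj12*.
Kcns3: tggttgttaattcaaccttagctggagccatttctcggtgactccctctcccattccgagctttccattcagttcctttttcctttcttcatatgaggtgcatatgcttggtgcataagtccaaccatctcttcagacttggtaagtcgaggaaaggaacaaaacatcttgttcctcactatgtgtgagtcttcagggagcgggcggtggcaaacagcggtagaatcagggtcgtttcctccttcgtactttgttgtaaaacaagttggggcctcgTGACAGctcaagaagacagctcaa
Kcnk5: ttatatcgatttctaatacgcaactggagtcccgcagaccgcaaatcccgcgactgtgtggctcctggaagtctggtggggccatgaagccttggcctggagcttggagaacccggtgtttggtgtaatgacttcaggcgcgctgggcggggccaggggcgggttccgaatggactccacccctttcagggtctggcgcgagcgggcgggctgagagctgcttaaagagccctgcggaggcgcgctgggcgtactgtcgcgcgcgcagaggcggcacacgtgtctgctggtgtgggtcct
The *Kcns3* window held 9 CpG at 47.0% GC, and the *Kcnk5* window 26 CpG at 63.7% GC. Meis letters occurred in 5 of the 17 windows (29.4%), against 22.1% of the members' windows and 19.3% of all 27025 promoters. Hox-Pbx letters occurred in none of the 17, in 2.9% of the members' and in 3.4% of all windows. E-box letters (CANNTG) occurred in 15 of the 17 (88.2%) and in 72.1% of both the members' and all windows. The median GC content was 57.0% over the 17, 59.0% over the members and 52.7% over all promoters. These are counts of letters and were not tested.

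To examine the effect of *Isl2*, KO was compared with heterozygote at each level in 6 libraries. Here a gene was called at the study's threshold, a log2 fold change beyond 0.5 with an unadjusted p under 0.05, and no member had an adjusted p under 0.05 at either level. With 3 libraries against 3, an exact permutation test cannot go below p = 0.1.

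At the brachial level 1 of 63 members was called higher, where 2.31% of all genes were, and 0 were lower, where 0.827% of all genes were. At an unadjusted p under 0.05 alone, 2 members were higher and 0 lower, while 2361 of all 16935 genes passed in either direction. *Kcnk2* had the smallest p, with 3.604, 3.973 and 3.271 TPM in heterozygotes and 4.56, 5.45 and 5.31 TPM in KO, a log2 fold change of 0.49 ± 0.14 (unadjusted p = 0.0103, adjusted p = 0.358), just inside the fold threshold and so not called. *Kcnq3* (0.51 ± 0.23) and *Kcna3* (0.39 ± 0.17) had unadjusted p of 0.0542 and 0.0565. Of these, *Kcna3* did not overlap, with at most 2.33 TPM in heterozygotes and at least 2.50 TPM in KO. The genotypes did not overlap in 7 members with higher KO values, against 10% of all genes, and in 2 with lower ones, against 10.2%. The lower pair was *Kcne4*, with at most 0.488 TPM in KO and at least 0.550 TPM in heterozygotes, and *Kcnj8*, with 7.49, 6.87 and 7.99 TPM in heterozygotes and 6.504, 6.705 and 4.850 TPM in KO (−0.31 ± 0.15, unadjusted p = 0.0748). The members' median log2 fold change was 0.07, that of all genes −0.0019, and 27 of 63 estimates were below 0.

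The brachial count changed with every library left out. It was 0 without heterozygote replicate 1 or 3 or without KO replicate 2 or 3, 2 without heterozygote replicate 2, and 9 without KO replicate 1, a fit in which 1116 of all genes were called higher in place of 391. With TPM as deposited, a scale that moved the median of all genes by 0.16, the count was 6 and 1211 of all genes were called higher. Estimates also varied with the span of the gene. Over all genes the rank correlation between span and brachial log2 fold change was 0.296, and over the 63 members it was 0.167, given as descriptions across genes, which are not independent. The 21 members with a span of at least 100 kb had a median log2 fold change of 0.16 and the 42 shorter ones of 0.0095, against 0.17 and −0.02 among all genes. Of the partners, 1 of 15 was called, *Ank3*, which anchors channels at the axon initial segment, at 0.90 ± 0.38 (unadjusted p = 0.0462, adjusted p = 0.358), and none of 13 pump and cotransporter genes was. Of the 10 pan-neuronal markers 4 were higher and 1 lower at an unadjusted p under 0.05, which 2361 of all 16935 genes reached in either direction. Of the 9 MN markers 3 were lower at that p, *Isl2* among them, with 4 estimates below 0, and of the 7 erythroid markers 0 were below 0, with a median of 0.49. The part of these cells in the channel values was not tested.

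At the lumbar level 1 of 57 members was called lower, where 0.781% of all genes were, and 0 were higher, where 0.981% of all genes were. At an unadjusted p under 0.05 alone, 2 members were lower and 1 higher, while 802 of all 16511 genes passed in either direction. The called gene was *Kcnj12*, with 0.688, 1.28 and 0.850 TPM in heterozygotes and 0.601, 0.50 and 0.358 TPM in KO. The genotypes did not overlap, by a gap of 0.601 to 0.688, and the log2 fold change was −0.81 ± 0.34 (unadjusted p = 0.0478, adjusted p = 0.997). *Kcnj12* is also among the genes the study lists as lower in KO, so its direction here is not independent evidence. Its per-base coverage was 0.146 to 0.492, and the call was lost without any of heterozygote replicates 2 and 3 and KO replicates 2 and 3 (unadjusted p = 0.0717 to 0.188). A pseudocount of 0.01 or 1, TPM as deposited, coverage in place of TPM, or the replicate block also ended the call. At the brachial level its values were 1.31, 1.89 and 1.82 TPM in heterozygotes and 1.17, 1.31 and 1.19 TPM in KO, which overlap, with a log2 fold change of −0.41 ± 0.22 (unadjusted p = 0.108).

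The smallest p at the lumbar level was that of *Kcnip1*. Its values were 41.0, 34.1 and 33.8 TPM in heterozygotes and 28.78, 26.41 and 26.02 TPM in KO, without overlap, and its log2 fold change of −0.42 ± 0.10 (unadjusted p = 0.00259, adjusted p = 0.964) stayed within the fold threshold. At the brachial level it was −0.14 ± 0.12 (unadjusted p = 0.279), or 0.029 with TPM as deposited, and the difference between the 2 levels was −0.28 ± 0.16 (unadjusted p = 0.105). *Kcnk5* was the only member with non-overlapping higher KO values, a pattern seen in 4.49% of all genes. It was at 2.23, 2.37 and 2.11 TPM in heterozygotes and 3.01, 3.37 and 2.94 TPM in KO, a log2 fold change of 0.45 ± 0.16 (unadjusted p = 0.021, adjusted p = 0.997). *Kcnf1* (−0.40 ± 0.19, unadjusted p = 0.0661) and *Kcnq1* (−0.60 ± 0.31, unadjusted p = 0.0845) came next, both without overlap, and *Kcnq1* shares its locus with an antisense transcript, so reads of the 2 strands could be mixed if strand was not used in counting. In all, 7 members had lower KO values without overlap, against 5.45% of all genes, among them also *Kcnj12*, *Kcnk1* and *Kcnmb2*. The members' median was −0.14, against −0.0057 for all genes, with 39 of 57 below 0, and without lumbar KO replicate 2 it was −0.04, with 34 below 0. Of the MN markers 9 of 9 had estimates below 0, with *Mnx1* at −0.01 and *Lhx3* at −0.02. At an unadjusted p under 0.05 were 4 of the 9, *Isl2*, the deleted gene, being 1 of these 4, against 802 of all 16511 genes. The summed level of the 9 overlapped, at 263 to 343 TPM in heterozygotes and 205 to 276 TPM in KO. Pan-neuronal markers had 10 of 10 estimates below 0, 1 of them at an unadjusted p under 0.05, with a median of −0.06. Neural progenitor markers had 2 of 10 below 0 and 4 higher at an unadjusted p under 0.05, with a median of 0.18, and erythroid markers had 0 of 7 below 0 and 1 called higher, with a median of 0.54. The part of these cells in the channel values was not tested. None of the 15 partners or 12 pump genes was called at this level.

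**Figure D4:**
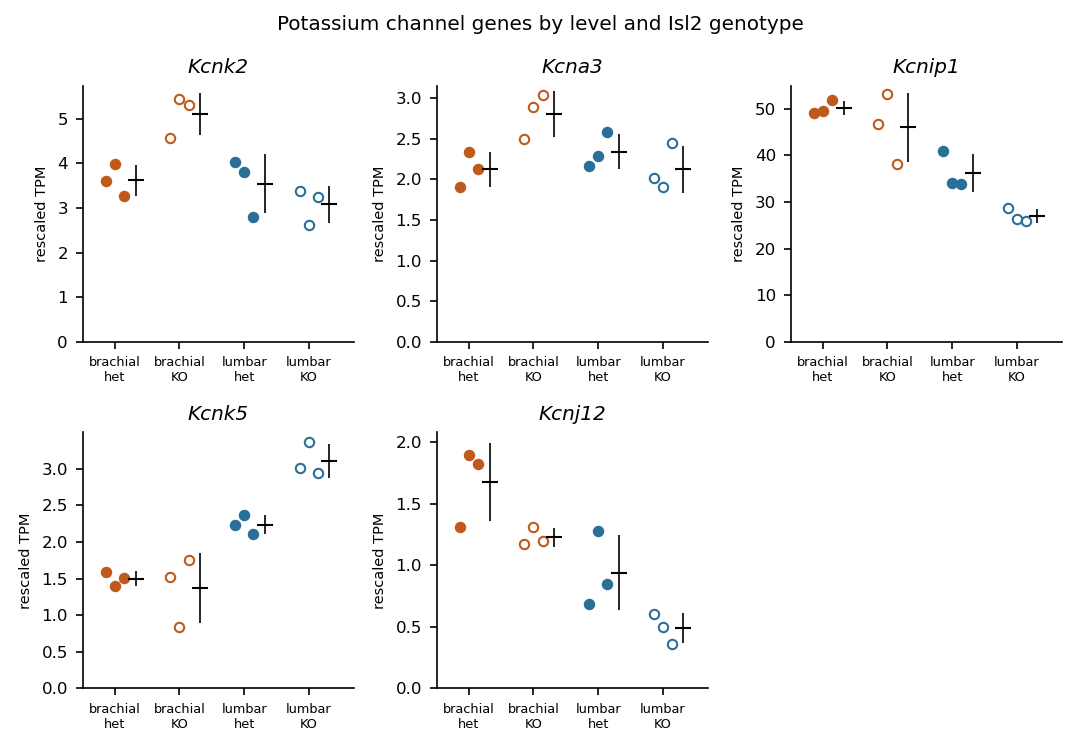
Rescaled TPM of 5 members by level and genotype, with filled points for heterozygote and open points for KO libraries and a bar for the mean and SD of each group of 3. *Kcnk2* and *Kcna3* lie higher in KO at the brachial level, *Kcnip1* and *Kcnj12* lower and *Kcnk5* higher in KO at the lumbar level.

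Whether the effect of *Isl2* differed between the levels was tested as an interaction in all 12 libraries. At an adjusted p under 0.05 no member passed (limma), and 0% of all genes did. At an unadjusted p under 0.05, 2 of 61 members passed, against 4.44% of all genes. These were *Kcnk2*, with −0.68 ± 0.24 (unadjusted p = 0.0144, adjusted p = 0.805), and *Kcna3*, with −0.52 ± 0.23 (unadjusted p = 0.0398, adjusted p = 0.805), both higher in KO at the brachial level. Of the 57 members tested at both levels, 21 had an estimate above 0 at the brachial and below 0 at the lumbar level, 4 the reverse, 18 were below 0 at both and 14 above 0 at both. In 51 of 61 members the interaction estimate was below 0, against 51.6% of all genes, and in 43 without brachial KO replicate 2 or without lumbar KO replicate 2. Several lists leaned the same way, with 8 of 10 pan-neuronal markers below 0, 4 of them at an unadjusted p under 0.05. So did 8 of 9 MN markers, 13 of 15 channel partners, and 11 of 12 pump and cotransporter genes. Pericyte and smooth muscle (4 of 4), Schwann and crest (4 of 5), mesenchymal (4 of 5) and microglial markers (4 of 6) did too. Neural progenitor (2 of 10), endothelial (1 of 7) and sensory neuron markers (3 of 7) did not. The part of these lists in the members' estimates was not tested. No member had non-overlapping genotypes at both levels, in the same or in opposite directions.

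**Figure D5:**
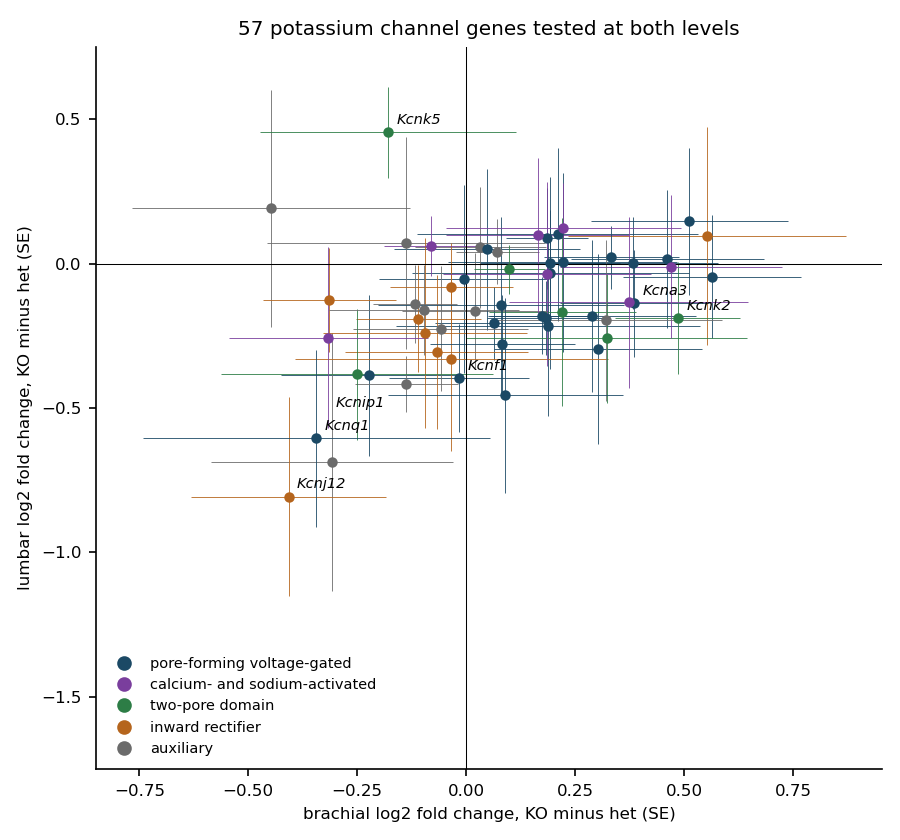
Log2 fold change of KO against heterozygote in brachial (x axis) and in lumbar libraries (y axis) for the 57 members tested at both, coloured by class, with bars for the SE. The points spread around 0 on both axes, and *Kcnj12* is the lowest on the lumbar axis at −0.81.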

How the data were processed

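The 12 libraries were made from total RNA with a stranded, rRNA-depleted kit. According to the submitters' notes and the study's methods, the authors used FastQC 0.11.7, Trimmomatic 0.38, HISAT2 2.1.0, Bowtie2 2.3.4.1 and StringTie 2.1.3b on mm10, library by library. StringTie gave the deposited TPM, FPKM and coverage (signal) values per gene, and whether strand was used is not given in the sources used here. Counts are not among the values, so the DESeq2 test of the study was not repeated, and counting error per gene is unknown. Coverage divided by FPKM, a constant shared by 32.6% to 32.9% of genes per library, was taken as the aligned bases, the only use of FPKM.

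Symbols came from RefSeq (GRCm38.p6), which named 45679 of 45777 identifiers. Size factors (median of ratios, 16378 genes) were applied to the deposited TPM, since small RNAs held 23.7% to 38.2% of TPM, 0.1 was added, and log2 values were fitted in limma 3.58.1 (R 4.3.3, eBayes with trend, two-sided) for all genes whose mean TPM reached 0.5, with Benjamini-Hochberg adjustment over all genes. Fold changes are on the log2(TPM + 0.1) scale and understate those of low genes. Genotypes were compared within each level in 6 libraries, levels and the interaction in 12. Named are the leading members of each family, members past a threshold, the 5 of smallest p per genotype comparison, *Kcnj12* and *Kcnip1*, and a few members that this rule would name are not reported here. Members, lists, rule and tests were chosen with earlier results of these data known. Deviations from group means were correlated between libraries with the same replicate number. The fit was tested on simulated data. Python 3.11.15 with pandas 2.3.3 read the tables, and matplotlib 3.10.9 drew the plots.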

Additional observations from a re-analysis of the deposited data

How the results depend on the processing

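The other settings tried were 0.01 or 1 as pseudocount, all genes above 0 or those from a mean TPM of 1, TPM as deposited, quantile normalization, coverage, no trend, a replicate block, 1 fit of all libraries, single genotypes, and each library left out. The 18 lower and 3 higher members between levels became 6 and 0 in heterozygotes only and 2 and 0 in KO only, fits with fewer samples, and 13 to 23 and 2 to 5 with 1 library left out. The 1 higher brachial member became 0 with a pseudocount of 1 or quantile normalization, 6 with TPM as deposited, and 0 to 9 with 1 library left out, and the 1 lower lumbar member became 0 with either pseudocount, a filter at 1, TPM as deposited or coverage, 2 without a trend, and 0 to 1 with 1 library left out. The cause was not tested. TPM as deposited moved the median of all genes by 0.16 at the brachial level, by −0.13 between levels and by −0.16 in the interaction, and turned brachial *Kcnip1* to 0.029. The interaction had 0 members in each fit. Correlations of same-numbered deviations were −0.209 to 0.23 between genotypes and −0.216 to 0.34 between levels. Libraries of different number were not compared, so these values cannot decide whether replicate numbers pair libraries. With the replicate block the brachial count was 1, the lumbar count 0, and the level counts 12 and 2, and the interaction count 0. Of 711 alternatives for single genes, 610 kept direction and side of the threshold, 92 lost and 8 gained a call, and 1 turned. Genes near 0.1 TPM are limited by depth, and without counts their error in a library cannot be given.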
